A study of Homo sapiens with 12 samples.

Results

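The hypoxia-inducible genes described here were HIF1A, EPAS1, VEGFA, ADM, NDRG1, ANKRD37, CA9, CA12, BNIP3 and EGLN3, a list of 10 genes outside glycolysis. They were measured in HK-2 cells, an immortalised line of human proximal tubular epithelium, exposed to CsA or to its control vehicle. CsA is read here as cyclosporine A, a calcineurin inhibitor that protects transplants and is toxic to the kidney. Where a gene had several probe sets, the one with the highest average across all 12 arrays was used. A named probe set was at hand for 9 of the 10 genes, and all 9 passed the filter on low values, a log2 value above 4 on every array of at least 1 group. They stood among 10508 tested genes of 19775 with a named probe set, and CA9 was not analysed here.

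The groups were CsA for 12 h, control for 12 h, CsA for 48 h and control for 48 h, each with 3 arrays labelled as biological replicates 1 to 3. The series asked how the kidney-toxic compound changes expression in these cells, as a further dataset to a screen for signatures of toxicity. All arrays came from a single cell line, plated a day before exposure and treated near confluence in medium with EGF, hydrocortisone, insulin and transferrin. The labels give no dose of CsA, name no vehicle and mention no lowering of oxygen. They do not say whether replicates were separate experiments, so p-values measure only the spread between these samples, which may be technical.

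HIF1A and EPAS1 encode the alpha subunits of the hypoxia-inducible factors, HIF. In oxygenated cells prolyl hydroxylases of the EGLN family mark these proteins for destruction through VHL, and in low oxygen they persist, join ARNT and bind a short DNA motif near target genes. This control acts mainly on the proteins, which arrays do not measure. In the kidney, tubular cells are best known for HIF1A, and EPAS1 is best known from endothelial and interstitial cells.

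The arrays were alike in scale, with medians of 2.85 to 2.96 on the log2 scale and 38.3 to 38.8% of probe sets above 4. Arrays of the same group correlated at 0.997 or more in each 12 h group, with lowest values of 0.982 for CsA and 0.991 for control at 48 h. Replicate 3 of CsA at 48 h stood apart. Over the 933 genes that differed by more than 1 and were called between times in control, its median shift from the CsA 12 h mean was 33.4% of the control shift, against 111% and 87.6% in replicates 1 and 2. Results for the members that it moved by more than 1.5 times or to another sign or call are given with and without it. Control replicate 3 at 48 h stayed in the fits without it. Of the control arrays at 48 h, that one was the lowest for EPAS1, VEGFA, NDRG1 and ANKRD37. It was the highest for EGLN3, CA12 and BNIP3, and lay between the others for HIF1A and ADM. Of 14 markers of proximal tubule, 11 had a named probe set, and only the transcription factor PAX8 passed the filter, while the endocytic receptors LRP2 and CUBN and the water channel AQP1 were above 4 on no array. All 7 general epithelial markers passed it, against 1 of 6 endothelial markers (PECAM1) and none of the 4 leukocyte markers with a probe set. The fibroblast markers COL1A1, DCN and LUM (3 of 6), the podocyte markers PODXL and SYNPO (2 of 3 with a probe set) and the collecting duct marker AQP2 (1 of 5 distal nephron markers with a probe set) were above 4 on all 12 arrays too. In such bulk samples, fewer cells of a kind and less RNA per cell cannot be told apart.

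The core of the HIF binding motif, ACGTG or GCGTG, was searched on both strands (CACGT or CACGC on the printed strand) in the 250 bases upstream of each gene's start in RefSeq, build GRCh38.p14, with overlapping matches merged into 1 place. An entry was at hand for 8 of the 10 genes, with 9 stretches in all, and 7 of these genes held the motif in a stretch. Counted by stretch and not by gene, 43.2% of all 35116 stretches of the same length held it. More than 1 place was held by 16.2% of all stretches. The stretches below are shown for a factor and a secreted target whose levels differed between times in control cells (EPAS1 and ADM) and for the listed genes with more than 1 place (ANKRD37 and BNIP3), with the motif in capitals. EPAS1 is chr2:46297157-46297406 on the plus strand, ADM chr11:10304823-10305072 on the plus strand, ANKRD37 chr4:185396591-185396840 on the plus strand and BNIP3 chr10:131981924-131982173 on the minus strand.
EPAS1: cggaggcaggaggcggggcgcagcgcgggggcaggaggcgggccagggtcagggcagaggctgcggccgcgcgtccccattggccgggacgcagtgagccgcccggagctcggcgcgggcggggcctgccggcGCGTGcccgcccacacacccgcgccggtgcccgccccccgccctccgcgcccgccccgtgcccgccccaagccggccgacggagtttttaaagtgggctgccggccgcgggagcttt
ADM: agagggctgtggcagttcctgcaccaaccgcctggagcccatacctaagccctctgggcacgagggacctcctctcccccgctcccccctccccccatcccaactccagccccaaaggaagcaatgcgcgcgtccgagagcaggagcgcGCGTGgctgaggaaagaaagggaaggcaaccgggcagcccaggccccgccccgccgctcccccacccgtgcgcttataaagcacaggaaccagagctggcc
ANKRD37: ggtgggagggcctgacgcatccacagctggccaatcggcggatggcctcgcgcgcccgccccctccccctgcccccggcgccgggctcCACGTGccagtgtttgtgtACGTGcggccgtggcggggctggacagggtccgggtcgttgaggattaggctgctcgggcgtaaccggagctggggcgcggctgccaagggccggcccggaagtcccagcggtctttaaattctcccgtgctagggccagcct
BNIP3: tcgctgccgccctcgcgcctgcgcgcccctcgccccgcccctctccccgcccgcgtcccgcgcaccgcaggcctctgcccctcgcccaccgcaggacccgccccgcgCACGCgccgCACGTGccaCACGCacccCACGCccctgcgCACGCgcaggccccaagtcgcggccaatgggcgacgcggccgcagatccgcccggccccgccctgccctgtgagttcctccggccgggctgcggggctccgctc

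The single place began 117 bases before the start of EPAS1 and 101 before that of ADM. ANKRD37 had places at 162 and 143 bases, the first a palindromic CACGTG, and BNIP3 had 5 places between 143 and 104 bases. HIF1A, CA9 and CA12 had 1 place each, at 204, 18 and 234 bases, and a second HIF1A stretch had none. EGLN3 had no match in its stretch. A match is a description of the letters in this window and not a bound site.

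The called differences all lay between 48 h and 12 h, and none between CsA and control. In control cells HIF1A, EPAS1, VEGFA, ADM and NDRG1 were higher at 48 h (5 of 9 members, against 26.2% of all tested genes called in either direction and 12.5% called higher), by 1.32 to 4.75-fold, and no member was called lower. Under CsA the time difference was called for ADM alone (1 of 9, against 14.4% of tested genes in either direction and 6.77% higher), with replicate 3 included, and no member was called lower, against 7.58%. Without that array HIF1A, EPAS1, VEGFA, ADM and NDRG1 were called under CsA too (5 of 9), where 37.0% of tested genes were called in either direction and 19.6% higher. Between CsA and control no member was called at 12 h or 48 h, where 0% of the 10508 tested genes was called by limma with Benjamini-Hochberg adjustment. At 12 h all CsA arrays lay above all control arrays for EPAS1 and VEGFA (2 of 9, against 5.37% of tested genes) and below them for EGLN3 (1 of 9, against 6.57%), and at 48 h the groups overlapped for every member, where 2.00% of tested genes lay apart and higher and 2.49% lower. Between times the groups lay apart and higher at 48 h for 2 members under CsA (16.0% of tested genes) and 6 in control (24.9%). They lay apart and lower for EGLN3 in both, as did 18.9% and 25.2% of tested genes. EGLN3 passed the filter through its 12 h groups alone, so its order is described and not used as support.

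**Figure D1:**
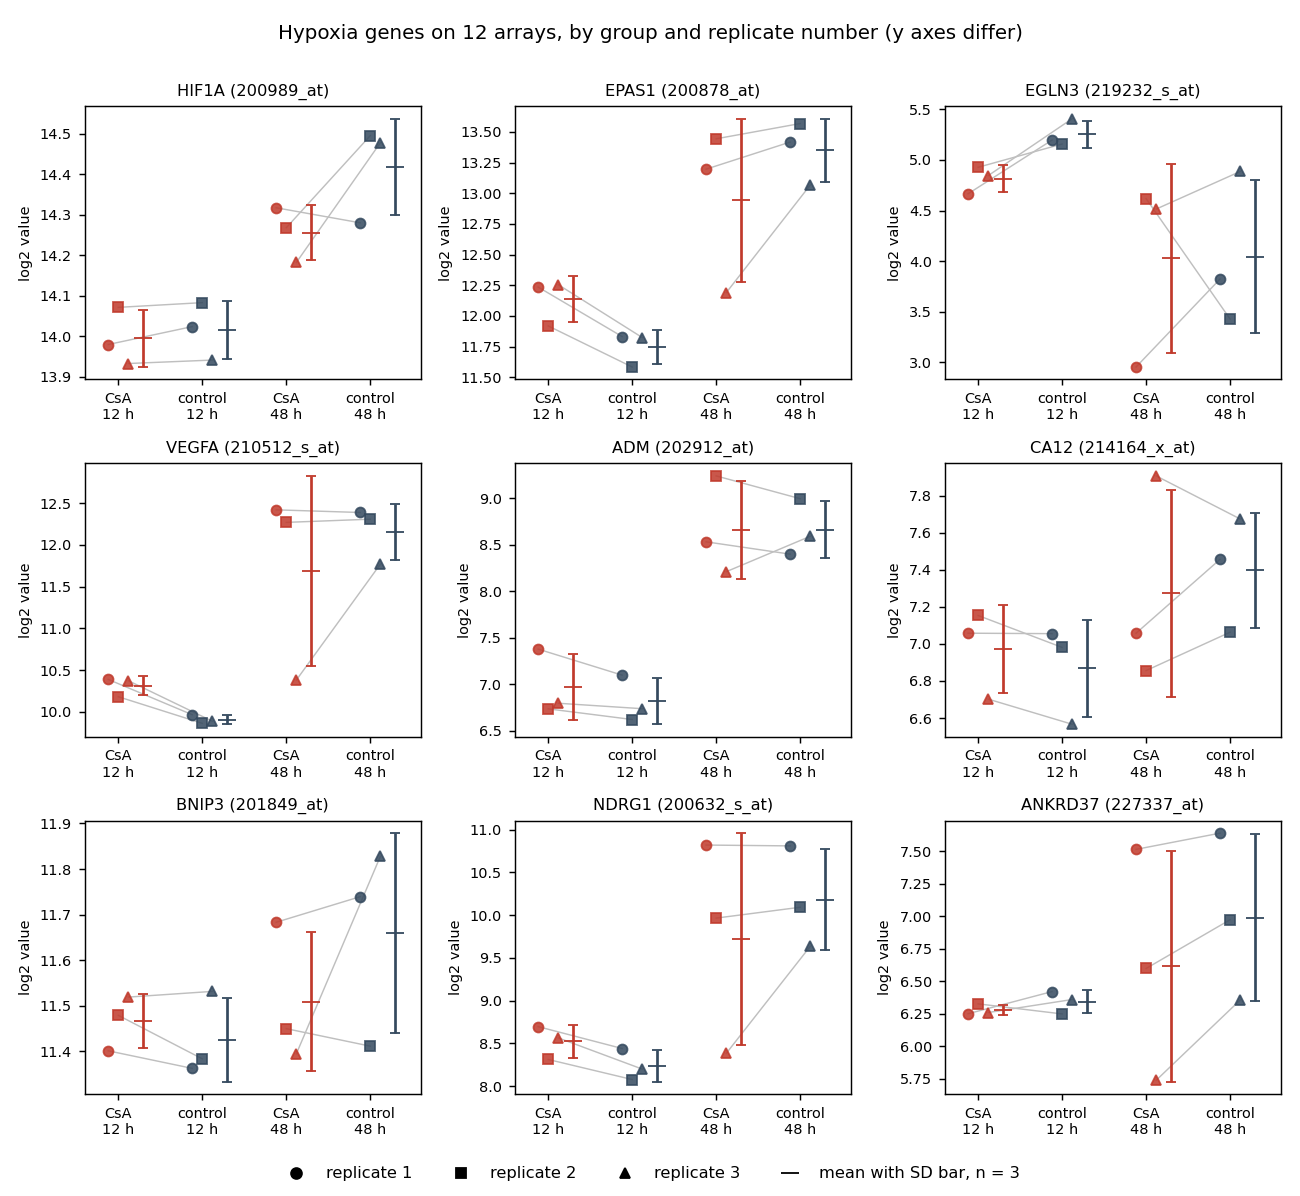
Log2 values of the 9 measured hypoxia genes on the 12 arrays, CsA (red) left of control (blue) at each time, with the marker shape giving the replicate number, grey lines joining same-numbered arrays and bars the mean and SD (n = 3); y axes differ between genes. VEGFA lies between 9.86 and 10.39 on the 12 h arrays and between 11.77 and 12.42 on 5 of the 6 arrays at 48 h, with CsA replicate 3 at 10.38.

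HIF1A, the broadly expressed oxygen-regulated subunit, varied by no more than 0.56 over all 12 arrays. Its log2 values were 13.98, 14.07 and 13.93 in CsA cells at 12 h, against 14.02, 14.08 and 13.94 in control cells. At 48 h they were 14.32, 14.27 and 14.18 in CsA cells, against 14.28, 14.50 and 14.48 in control cells. The 12 h groups overlapped almost fully, all 6 arrays at 48 h were above all 6 at 12 h, and CsA replicate 3 was the lowest at 48 h. In control cells HIF1A rose at 48 h by 0.40 on the log2 scale (SE 0.096, adjusted p = 0.015), that is 1.32-fold. Under CsA the difference was 0.26 (adjusted p = 0.090), and 0.30 without replicate 3 (adjusted p = 0.044). The control result was lost without control replicate 3 at 12 h (adjusted p = 0.059) or without control replicate 2 at 48 h (adjusted p = 0.055). CsA minus control was -0.02 at 12 h (95% interval -0.23 to 0.19) and -0.16 at 48 h (-0.37 to 0.050).

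EPAS1, the second oxygen-regulated subunit, was the only member whose numbered pairs all differed one way at 12 h and all the other way at 48 h. At 12 h its log2 values were 12.23, 11.92 and 12.25 in CsA cells, against 11.83, 11.58 and 11.82 in control cells. The 48 h values were 13.20, 13.44 and 12.19 in CsA cells, against 13.42, 13.57 and 13.07 in control cells. At 12 h every CsA array was above every control array, whereas at 48 h the groups overlapped and each CsA array was below the control array of its number. Within pairs 1 to 3 the difference was 0.40, 0.33 and 0.43 at 12 h, turning to -0.22, -0.12 and -0.88 at 48 h. Of all tested genes, 2.64% had every pair higher at 12 h and every pair lower at 48 h. CsA minus control was 0.39 at 12 h (SE 0.28, adjusted p = 1.00) and -0.41 at 48 h (SE 0.28, adjusted p = 0.999), with 95% intervals of -0.23 to 1.01 and -1.02 to 0.21. Without CsA replicate 3, the difference at 48 h was -0.03, with control replicate 3, the lowest of its group, kept in the fit. The effect at 48 h minus that at 12 h was -0.80 (SE 0.39, unadjusted p = 0.069, adjusted p = 1.00), and -0.42 without CsA replicate 3 at 48 h. With pairs as a block its adjusted p was 0.514, and its unadjusted p 0.0058, where 9.15% of tested genes had an unadjusted p under 0.05.

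EPAS1 also differed between times. In control cells it rose by 1.60 (SE 0.28, adjusted p = 0.0042), 3.04-fold, with means of 13.35 ± 0.26 at 48 h and 11.75 ± 0.14 at 12 h (SD, n = 3 each). Under CsA the time difference was 0.81 (adjusted p = 0.077), and 1.18 without replicate 3 (adjusted p = 0.0016). Replicates 1 and 2 of CsA at 48 h lay above all CsA arrays at 12 h, and replicate 3 lay among them. A second EPAS1 probe set past the filter gave the same directions, with 0.50 for CsA minus control at 12 h, -0.57 at 48 h and 2.05 for time in control.

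EGLN3, a HIF-induced prolyl hydroxylase that feeds back on the factors, was near the filter and passed it through its 12 h groups alone. Its order between times is therefore described and not used as support. It measured 4.67, 4.93 and 4.84 in CsA cells at 12 h, against 5.20, 5.16 and 5.41 in control cells. All CsA arrays were below all control arrays, the opposite order to EPAS1. The difference was -0.44 (SE 0.44, adjusted p = 1.00). At 48 h the values were 2.95, 4.62 and 4.51 in CsA cells, against 3.82, 3.43 and 4.89 in control cells. These groups overlapped, with a difference of -0.02 (-0.26 without CsA replicate 3), and in both the 48 h arrays lay below the 12 h arrays. The time differences were -0.78 under CsA (adjusted p = 0.24) and -1.21 in control (adjusted p = 0.065). Leaving out a single 48 h array brought the control difference past the threshold in 3 cases, without CsA replicate 1 (adjusted p = 0.015), CsA replicate 3 (adjusted p = 0.049) or control replicate 3 (-1.63, adjusted p = 0.021). Without either CsA array the difference stayed at -1.21 and only the shared spread changed. With the control arrays alone in the fit it was called too (adjusted p = 0.047), and it was called in 9 of 24 alternatives. These calls share the limit set by the filter and are not used as support either.

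VEGFA, the secreted growth factor for blood vessels, showed the widest time difference of the 9 members in control cells. Its values were 10.39, 10.18 and 10.37 in CsA cells at 12 h, against 9.97, 9.86 and 9.89 in control cells. At 48 h they were 12.42, 12.27 and 10.38 in CsA cells, against 12.39, 12.31 and 11.77 in control cells. CsA arrays were all above control arrays at 12 h. At 48 h replicates 1 and 2 of the 2 treatments nearly coincided, and CsA replicate 3 sat at the level of the CsA arrays at 12 h. In control cells VEGFA rose by 2.25 (SE 0.43, adjusted p = 0.0064), 4.75-fold. Under CsA the time difference was 1.37 (adjusted p = 0.057), and 2.03 without replicate 3 (adjusted p = 2.58e-04).

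The CsA effect on VEGFA was not called at either time. It was 0.41 at 12 h (SE 0.43, adjusted p = 1.00), with pair differences of 0.42, 0.32 and 0.49. It was -0.46 at 48 h (SE 0.43, adjusted p = 0.999), with pair differences of 0.03, -0.04 and -1.39. Without CsA replicate 3 it was 0.19, with control replicate 3, the lowest of its group, kept in the fit. The 95% intervals ran between -0.55 and 1.37 at 12 h and between -1.42 and 0.49 at 48 h. In a fit added after the data were seen, with the 12 h arrays alone, pairs as a block and a trended, robust variance, both EPAS1 and VEGFA passed (adjusted p = 0.0070 for EPAS1 and 0.020 for VEGFA), among 154 genes called, 1.47% of those tested. Without the trend and robust steps that fit gave adjusted p = 0.137 for EPAS1 and 0.143 for VEGFA. The other 3 VEGFA probe sets gave 0.20 to 0.56 at 12 h, -0.57 to -0.39 at 48 h and 1.84 to 2.52 for time in control.

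**Figure D2:**
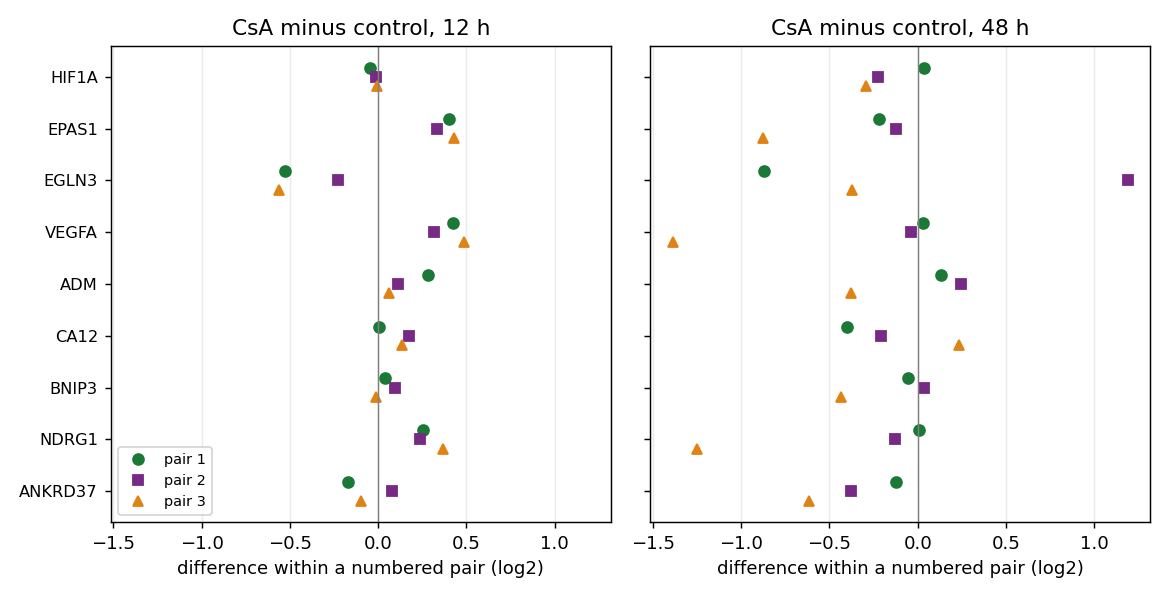
Difference in log2 value between the CsA and the control array of the same number, at 12 h (left) and 48 h (right), for the 9 measured hypoxia genes; each marker is 1 pair. EPAS1 lies between 0.33 and 0.43 at 12 h and between -0.88 and -0.12 at 48 h, and VEGFA and NDRG1 lie near 0 at 48 h except in pair 3.

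ADM encodes adrenomedullin, a secreted vasodilator peptide. Its values were 7.38, 6.74 and 6.80 in CsA cells at 12 h, against 7.10, 6.62 and 6.74 in control cells. The 48 h values were 8.53, 9.24 and 8.21 in CsA cells, against 8.40, 8.99 and 8.59 in control cells. CsA and control overlapped at both times, and all 48 h arrays, CsA replicate 3 included, were above all 12 h arrays. ADM rose at 48 h by 1.69 under CsA (SE 0.28, adjusted p = 0.0060), 3.23-fold, and by 1.84 in control (SE 0.28, adjusted p = 0.0024), 3.58-fold. With the CsA arrays alone in the fit, the CsA call was lost (adjusted p = 0.065). CsA minus control was 0.15 at 12 h (95% interval -0.46 to 0.77) and -0.0011 at 48 h (-0.62 to 0.61), or 0.22 at 48 h without CsA replicate 3.

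NDRG1, a hypoxia and stress induced gene linked to growth arrest and differentiation, spanned 2.74 over the 12 arrays, the widest range of the 9 members. At 12 h it measured 8.70, 8.31 and 8.56 in CsA cells, against 8.44, 8.08 and 8.20 in control cells. The 48 h values were 10.82, 9.96 and 8.38 in CsA cells, against 10.81, 10.09 and 9.63 in control cells. Each CsA array was above its numbered control array at 12 h, while the groups overlapped, and CsA replicate 3 at 48 h lay inside the CsA range of 12 h. In control cells NDRG1 rose by 1.94 (SE 0.51, adjusted p = 0.021), 3.84-fold. That call was lost without control replicate 2 or 3 at 12 h, or replicate 1 or 2 at 48 h, with adjusted p between 0.056 and 0.077. Under CsA the time difference was 1.20 (adjusted p = 0.13), and 1.87 without replicate 3 (adjusted p = 0.0032). CsA minus control was 0.29 at 12 h (95% interval -0.83 to 1.41) and -0.46 at 48 h (-1.58 to 0.66), or 0.21 at 48 h without CsA replicate 3. Control replicate 3, the lowest of its group, stayed in that fit, and pairs 1 and 2 differed by 0.01 and -0.13.

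CA12, a membrane carbonic anhydrase that helps to export acid, showed no called difference. It measured 7.06, 7.15 and 6.70 in CsA cells at 12 h, against 7.06, 6.98 and 6.57 in control cells. At 48 h it measured 7.06, 6.86 and 7.91 in CsA cells, against 7.46, 7.06 and 7.67 in control cells. CsA replicate 3 was here the highest array of its group, unlike for EPAS1, VEGFA and NDRG1. The control 48 h arrays were all above the control 12 h arrays, with a time difference of 0.53 (SE 0.27, adjusted p = 0.16), and the CsA time difference of 0.30 became -0.01 without replicate 3. The 4 CA12 probe sets past the filter disagreed in sign for CsA minus control at 48 h, with -0.12 on the one used (-0.44 without CsA replicate 3) and 0.23 to 0.34 on the others.

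BNIP3, a mitochondrial protein that promotes mitophagy and cell death, varied least, between 11.36 and 11.83 over the 12 arrays. Its values at 48 h were 11.68, 11.45 and 11.39 in CsA cells, against 11.74, 11.41 and 11.83 in control cells, and those at 12 h were 11.40, 11.48 and 11.52 in CsA cells, against 11.36, 11.38 and 11.53 in control cells. Groups overlapped in every comparison. CsA minus control was 0.04 at 12 h and -0.15 at 48 h, or -0.09 at 48 h without CsA replicate 3. The time difference was 0.04 under CsA (adjusted p = 0.84), 0.10 without replicate 3, and 0.23 in control (adjusted p = 0.19). Its second probe set differed in sign for CsA minus control at 12 h, with -0.05 against 0.04, and for time under CsA, with -0.19 against 0.04.

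ANKRD37, a small ankyrin-repeat protein induced by hypoxia, spread widely at 48 h. It measured 6.25, 6.32 and 6.26 in CsA cells at 12 h, against 6.42, 6.25 and 6.36 in control cells. The 48 h values were 7.51, 6.60 and 5.74 in CsA cells, against 7.64, 6.97 and 6.35 in control cells. At 48 h each CsA array was below its numbered control array, with pair differences of -0.12, -0.38 and -0.62, and replicate 3 was the lowest in both groups. CsA minus control at 48 h was -0.37 (SE 0.40, adjusted p = 0.999). It was 0.07 without CsA replicate 3, in a fit that kept control replicate 3, although pairs 1 and 2 were both below 0. EPAS1 and ANKRD37 were the 2 members lower in all 3 pairs at 48 h, where 16.2% of tested genes were. Time differences were 0.34 under CsA (adjusted p = 0.58), 0.78 without replicate 3 (adjusted p = 0.098), and 0.65 in control (adjusted p = 0.25).

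**Figure D3:**
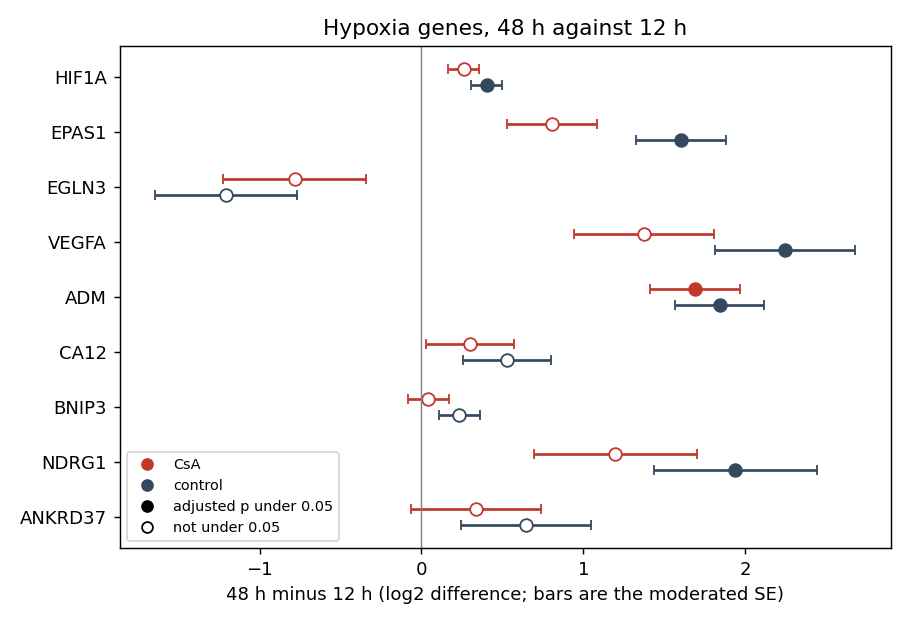
Log2 difference of 48 h minus 12 h for the 9 measured hypoxia genes under CsA (red) and in control (blue), with the moderated SE as bars and filled points for an adjusted p under 0.05 (limma over 10508 genes). In control 5 genes are filled, from 0.40 for HIF1A to 2.25 for VEGFA, and under CsA only ADM is filled, at 1.69.

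Read together, the members had a median CsA minus control difference of 0.10 at 12 h, with 6 above and 3 below 0, and of -0.16 at 48 h, with all 9 below 0. The medians over all tested genes were -0.01 and -0.02. Without CsA replicate 3 at 48 h, the median at 48 h was -0.03 and 4 members (VEGFA, ADM, NDRG1 and ANKRD37) turned above 0. Control replicate 3 stayed in that fit. Of these 4, only ADM was above 0 in both pairs 1 and 2 (0.13 and 0.24). VEGFA had 0.03 and -0.04 there, NDRG1 0.01 and -0.13, and ANKRD37 -0.12 and -0.38. Without the block, the 95% intervals of CsA minus control held 0 for all 9 members at both times. With pairs as a block they lay apart from 0 for EPAS1 at 12 h (0.050 to 0.73) and for EPAS1 (-0.75 to -0.07) and ANKRD37 (-0.63 to -0.12) at 48 h, none of which passed adjustment over all genes. At 12 h 5 members were higher in every pair (EPAS1, VEGFA, ADM, CA12 and NDRG1), where 18.9% of tested genes were, and 2 were lower in every pair (HIF1A and EGLN3), where 22.5% were. Some differences were small, 0.0024 for CA12 in pair 1 and -0.044 to -0.0085 for HIF1A. For CA12 and VEGFA, other probe sets past the filter had a pair below 0 (-0.056 and -0.34 for CA12, -0.015 for VEGFA). The second EPAS1 probe set past the filter had none, and HIF1A, ADM and NDRG1 had only 1 probe set each. A second EGLN3 probe set, which did not pass the filter, had 0.12 in pair 2. At an unadjusted p under 0.05, limma without the block called none of the 9 members at either time, against 1.31% of tested genes at 12 h and 2.52% at 48 h. With the block it called 1 member at 12 h (EPAS1), against 7.28% of tested genes, and 2 at 48 h (EPAS1 and ANKRD37), against 12.3%. For the effect at 48 h minus that at 12 h no member was called either, where 0% of tested genes was and 1.54% had an unadjusted p under 0.05, but with the block 2 members did (EPAS1 and VEGFA), against 9.15%. After adjustment, pairs as a block called 3 genes at 12 h, 0.0285% of those tested, and none at 48 h, with no member among them. Median time differences of the members were 0.34 under CsA and 0.65 in control, where those over all tested genes were both 0.01.

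How far replicate 3 of CsA at 48 h lay from the CsA 12 h mean differed between members. As a share of the control time difference, it had moved 67.3% for ADM and 46.7% for HIF1A, and 2.97% for VEGFA, 3.35% for EPAS1 and -7.24% for NDRG1. Replicates 1 and 2 had moved between 66.1 and 123% for these 5 genes. It lay below both other arrays of its group by 1.89 for VEGFA, 1.58 for NDRG1 and 1.01 for EPAS1, a gap over 1 that 5.81% of tested genes showed.

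Genes of endoplasmic reticulum (ER) stress and ATF4 differed between the same arrays. The mean log2 value over 12 such genes was 12.2, 12.1 and 9.38 in CsA cells at 48 h, against 12.3, 12.2 and 11.3 in control cells. At 12 h it was 10.5, 9.70 and 10.3 in CsA cells, against 9.44, 8.66 and 9.23 in control cells. CsA arrays were thus all above control at 12 h, and CsA replicate 3 was the lowest array at 48 h, as for EPAS1 and VEGFA. Of the 12, none was called between CsA and control, except DNAJB9, an ER co-chaperone, at 12 h with pairs as a block (1.45, adjusted p = 0.024), with all 12 above 0 at 12 h (median 0.93) and all below 0 at 48 h (median -0.60). Without CsA replicate 3, the median at 48 h was 0.16, with 8 above and 4 below 0. Control replicate 3, the control array with the lowest mean at 48 h, stayed in that fit. In pairs 1 and 2 the mean was slightly lower in CsA cells than in control cells. Between times 2 were called higher at 48 h under CsA, 7 without replicate 3, and 11 in control, against 6.77%, 19.6% and 12.5% of tested genes. Over 12 proliferation genes the mean was 9.76, 10.5 and 11.6 in CsA cells at 48 h, against 10.1, 10.6 and 11.2 in control cells, with 11.7 to 11.9 on all arrays at 12 h, so replicate 3 was the nearest to 12 h in both groups. Of these 12, 3 were called lower at 48 h under CsA, 12 without replicate 3, and 7 in control. Shares of all tested genes called lower were 7.58% under CsA and 13.7% in control, and 37.0% were called in either direction without replicate 3. The part of either list in the hypoxia gene values was not tested.

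**Figure D4:**
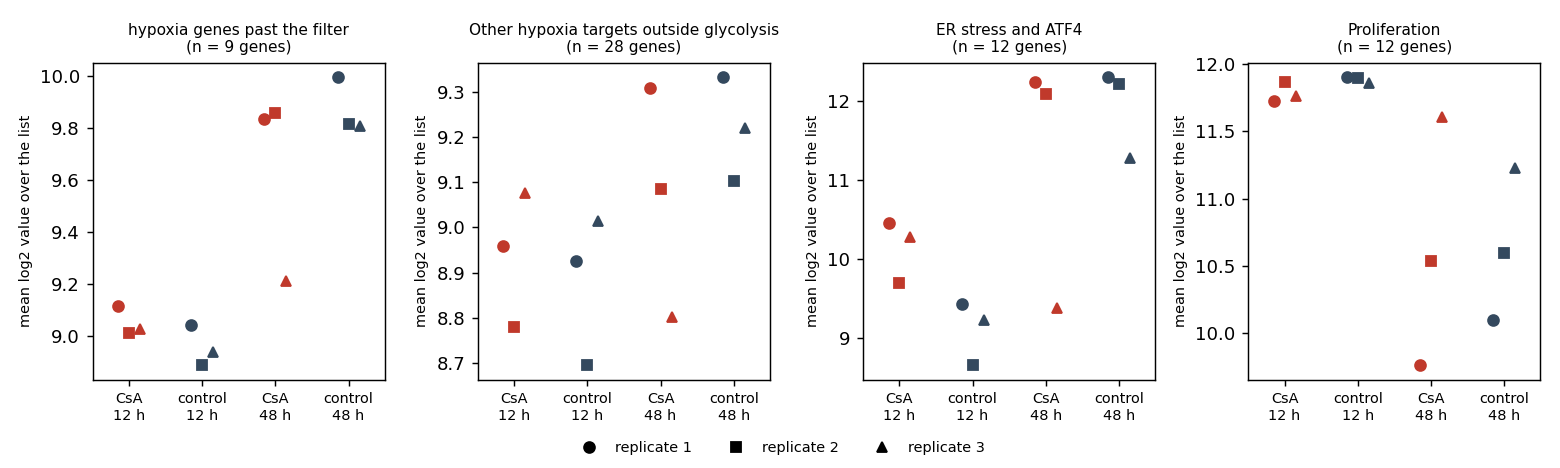
Mean log2 value over the genes of a list on each array, for the 9 hypoxia genes, 28 other hypoxia targets, 12 ER stress and ATF4 genes and 12 proliferation genes, CsA (red) left of control (blue) at each time and the marker shape giving the replicate. In the ER stress panel CsA replicate 3 at 48 h is at 9.38, against 12.2 and 12.1 for replicates 1 and 2.

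The partners and regulators of the factors changed in both directions with time. Of 14 such genes 10 passed the filter, while VHL, EGLN2, ARNT2 and HIF3A did not. Under CsA 2 rose and 1 fell at 48 h, where 14.4% of all tested genes were called in either direction. Without replicate 3 it was 2 and 2 (37.0% of tested genes), and in control 3 rose and 4 fell (26.2%). None was called between CsA and control at either time. The coactivator CREBBP rose by 0.88 under CsA (adjusted p = 0.013) and 0.91 in control (adjusted p = 0.0070), and CITED2, which competes with HIF for that coactivator, by 0.75 under CsA (adjusted p = 0.045) and 0.92 in control (adjusted p = 0.014). EP300, a second coactivator, had 0.21 under CsA (adjusted p = 0.38) and rose by 0.52 in control (adjusted p = 0.034). EGLN1, the main oxygen sensor of the factors, measured 10.19, 10.04 and 9.62 at 48 h under CsA, against 10.53, 10.76 and 10.69 at 12 h. In control cells it measured 10.23, 10.17 and 9.94 at 48 h, against 10.68, 10.75 and 10.86 at 12 h. Its 48 h arrays were all below its 12 h arrays, and it fell by 0.71 under CsA (adjusted p = 0.015) and by 0.65 in control (adjusted p = 0.013). HIF1AN, the asparagine hydroxylase that blocks the coactivators, fell by 0.50 in control (adjusted p = 0.0093). Of the ligase components, RBX1 fell by 1.08 in control (adjusted p = 0.020) and ELOC fell by 0.28 (adjusted p = 0.045). ARNT, the obligate partner, had -0.07 under CsA (adjusted p = 0.73) and 0.14 in control (adjusted p = 0.38).

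Few receptors for the secreted members passed the filter. Of the VEGF family and receptors 4 of 9 listed genes passed the filter, and the receptors FLT1, KDR and NRP2 were above 4 on no array. The co-receptor NRP1 was above 4 on all 12 arrays, with time differences of -1.02 under CsA (adjusted p = 0.20) and -1.41 in control (adjusted p = 0.071). VEGFC, a growth factor of lymphatic vessels, fell at 48 h by 0.80 under CsA (adjusted p = 0.027) and by 1.03 in control (adjusted p = 0.0064), the 1 family gene called in each. Without CsA replicate 3, 2 family genes were called lower under CsA, where 37.0% of tested genes were called in either direction. The adrenomedullin receptor genes CALCRL, RAMP1, RAMP2 and RAMP3 and the related peptide ADM2 were above 4 on no array. Of 13 further carbonic anhydrases 3 passed it, of which CA11 rose by 1.63 under CsA (adjusted p = 0.013) and 1.38 in control (adjusted p = 0.015), and the cytosolic CA2 fell by 0.88 under CsA (adjusted p = 0.010) and 0.73 in control (adjusted p = 0.013). BNIP3L, the close relative of BNIP3 in mitophagy, rose by 0.53 under CsA (adjusted p = 0.010) and 0.54 in control (adjusted p = 0.0053). NDRG4 had -0.76 under CsA (adjusted p = 0.13) and fell by 1.09 in control (adjusted p = 0.032).

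Among 28 tested genes of 34 other hypoxia targets outside glycolysis, 3 were called higher and none lower at 48 h under CsA, and 8 higher and 1 lower in control, with median differences of 0.06 under CsA and 0.34 in control. Of all tested genes, 6.77% were called higher and 7.58% lower under CsA, and 12.5% and 13.7% in control. Without CsA replicate 3, 6 were called higher and 4 lower under CsA. Shares over all tested genes were then near this, at 37.0% in either direction and 19.6% higher. The transcriptional repressor BHLHE41 measured 9.79, 9.84 and 9.65 at 48 h under CsA, against 8.11, 8.27 and 7.42 at 12 h. In control cells it measured 9.72, 10.01 and 10.47 at 48 h, against 7.84, 7.75 and 7.47 at 12 h. Its 48 h arrays were above all 12 h arrays, CsA replicate 3 included, and it rose by 1.83 under CsA (adjusted p = 0.0037) and by 2.38 in control (adjusted p = 9.41e-04). MXI1, a MYC antagonist, rose by 1.16 under CsA and 1.27 in control, and WSB1, an adaptor of a ubiquitin ligase, by 0.79 under CsA and 0.67 in control. The other 5 genes called higher in control were the histone demethylases KDM3A and KDM4B, the collagen lysyl hydroxylase PLOD2, the pyruvate dehydrogenase kinase PDK1 and the lipoprotein receptor VLDLR, with differences of 0.67 to 1.30 in control and -0.08 to 0.94 under CsA. The transferrin receptor TFRC had -0.60 under CsA (adjusted p = 0.052) and fell by 0.65 in control (adjusted p = 0.028). Between CsA and control none of the 28 was called at either time. The 19 tested glycolysis genes, which share HIF as a regulator, had 1 called higher and 5 lower under CsA, or 4 and 9 without replicate 3, and 3 higher and 3 lower in control. The same shares over all tested genes stand beside these counts.

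**Figure D5:**
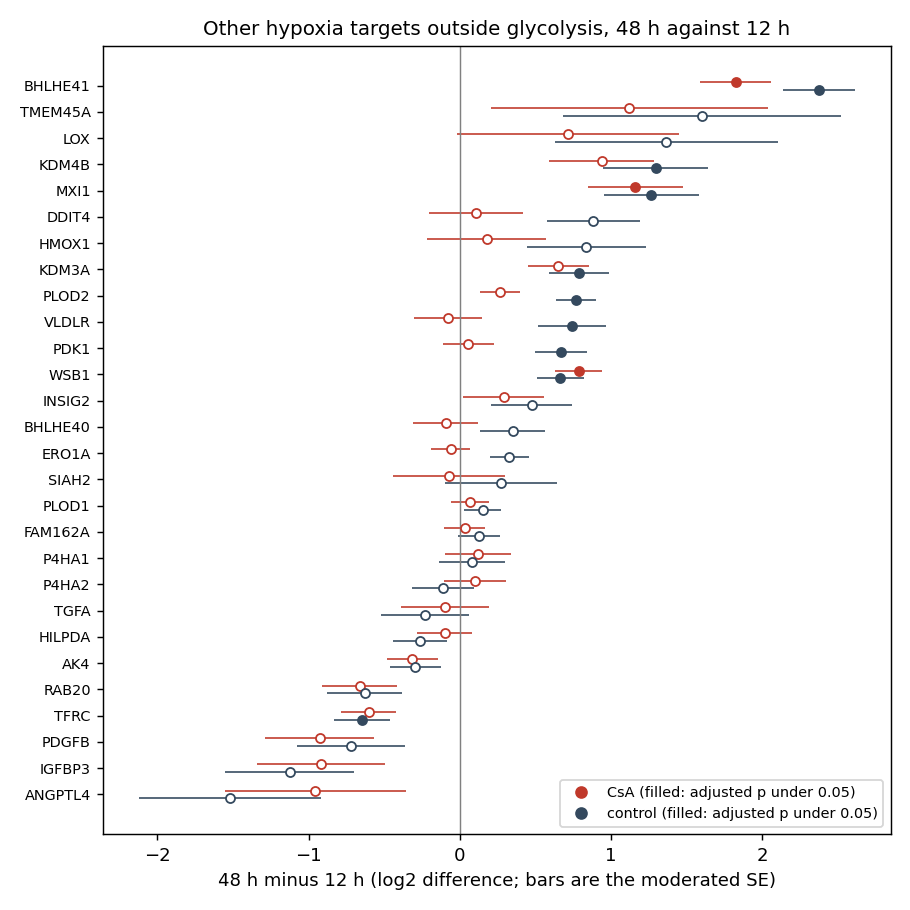
Log2 difference of 48 h minus 12 h for the 28 tested hypoxia targets outside glycolysis that are not among the listed 10, under CsA (red) and in control (blue), with the moderated SE as bars and filled points for an adjusted p under 0.05. BHLHE41 is highest at 1.83 under CsA and 2.38 in control, and ANGPTL4 lowest at -0.95 and -1.52 with open points.

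The genes nearest in pattern to the 3 members with the widest range were found by the root mean square difference between log2 values over the 12 arrays, each gene centred on its own mean. For NDRG1 they were SCAND3 (0.136), ZFP69B (0.176) and VAMP4 (0.187). For VEGFA they were SGTB (0.158), SLFN5 (0.196) and TTBK2 (0.204), and for ADM they were CPEB4 (0.281), FRMD5 (0.290) and PLAAT3 (0.290). ADM was thus less closely matched by any gene than were the other 2. Of the other members, NDRG1 was the closest to VEGFA at 0.248 and EGLN3 the farthest at 1.68.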

How the data were processed

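HK-2 cells were profiled on 12 Affymetrix arrays, 3 in each of 4 groups. The range of the deposited values shows a log2 scale. The authors made them with GCRMA, per the submitters' processing notes, and its version is not given in the sources used here. They were used as deposited. Of 54675 probe sets, 62 controls were left out, 41091 had 1 gene symbol in the platform annotation, 1801 several and 11721 none. The symbols of 54 had a gene ID outside the gene name table and 0 were updated. Arrays have no read depth, and their number limits the precision.

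Groups came from the labels. Differences were tested two-sided over 10508 genes in R 4.3.3 with limma 3.58.1 (4 group means, 8 residual degrees of freedom, eBayes, Benjamini-Hochberg adjustment, threshold 0.05), after the code was tested on simulated data. The labels number the replicates. Deviations of same-numbered CsA and control arrays from their group means correlated across genes, with 0.37, 0.53 and 0.59 at 12 h and 0.78, 0.54 and 0.74 at 48 h, so the pairing comes from the data, and a fit with pairs as a block (4 residual degrees of freedom) was an alternative. Same-numbered arrays of different times were not paired (-0.14 to 0.23). Other alternatives changed the filter, probe set, scaling, moderation and arrays. All listed genes were named whatever their values, with the genes called in related lists. Members and lists were chosen with earlier results of these data known. Sequences are from RefSeq.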

Additional observations from a re-analysis of the deposited data

Results flagged for a closer look

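EPAS1 was singled out because its CsA minus control difference was above 0 in every numbered pair at 12 h and below 0 in every pair at 48 h. The difference between these effects was -0.80 on the log2 scale (48 h minus 12 h) and did not pass limma's test after adjustment (adjusted p = 1.00, and 0.514 with pairs as a block). Over 24 alternatives it ranged from -1.07 to -0.42 and was called in none. The 48 h difference of -0.41 was -0.03 without CsA replicate 3, and the difference between effects was then -0.42. Control replicate 3, the lowest control array at 48 h, stayed in that fit, and pairs 1 and 2 differed by -0.22 and -0.12. Of all tested genes, 2.64% showed the same switch in pairs.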

How the results depend on the processing

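No hypoxia gene value that was called changed direction under any alternative. Of 1147 values compared, 1068 kept their sign and their side of the threshold, 38 not called in either fit changed sign, 11 lost and 30 gained a call. Size was not part of this comparison. The number of hypoxia genes called between CsA and control was 0 at 12 h, except 2 with the 12 h arrays alone, the replicate block, and trend and robust moderation, and 0 at 48 h and for the difference of effects in all alternatives. The replicate block within each time was fitted only for CsA against control and the difference of effects, where no member was called with or without it. Leaving out 1 array in turn gave 3 to 6 called in control between times (5 with all arrays) and 1 to 5 under CsA (1 with all arrays). Under CsA the number was 0 with the CsA arrays alone, with or without the replicate block and trend and robust moderation, 2 with the replicate block across both times, with trend and robust moderation, with the filter above 6 or with arrays centred, 5 with array weights or without CsA replicate 3 at 48 h, and 6 without pair 3 at 48 h. The cause was not tested. Leaving out pair 3, the trended fit of single-time arrays and a random block for pairs were chosen after seeing the data. A fixed block within each time could not be fitted between times, since no pair spans them, and the random block kept 5 called in control and 1 under CsA. The difference of effects needs all arrays, so it has no fit with fewer groups. Over all genes, 0 to 154 were called between CsA and control at 12 h, 1322 to 4981 between times in control and 0 to 4485 under CsA. EGLN3 lay close to the filter, where low values limit precision.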
